A study of Caenorhabditis elegans with 2 samples.

Results

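The 10 genes described here act in sex determination or X dosage compensation in Caenorhabditis elegans. They are xol-1, the SDC genes sdc-1, sdc-2 and sdc-3, the dosage compensation genes dpy-21, dpy-26, dpy-27, dpy-28 and dpy-30, and her-1. They are 10 of 19973 protein-coding genes, and they were chosen by name, with the positions and signals of the candidate regions near them in view. A candidate region belonged to a gene when its summit lay in the gene or within 5 kb of it. By that rule 62 of 30000 pooled candidate regions belonged to the 10 genes, and no region belonged to more than 1 of them.

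The data are chromatin immunoprecipitation sequencing (ChIP-seq) of HPL-2, a homologue of the heterochromatin protein HP1, in whole L1 larvae of mixed sex kept without food. The single group held 2 libraries, labelled biological replicates 1 and 3, with a fragment size range of 150 to 350. Both came from strain YL474, which carries lin-35(n745), an allele of the worm retinoblastoma homologue, unc-119(ed3) and the array vrIs64, an HPL-2 fusion to GFP and FLAG with the HPL-2 3-UTR and unc-119(+). The array is driven by the ges-1 promoter, which is active in the intestine, and the listed genotype holds no hpl-2 allele. The labels name tagged HPL-2 in one field and hpl-2 as the antibody in another, so what was precipitated is not settled. No animals with wild-type lin-35 and no control library were analysed here, and no comparison between conditions was possible. The lists hold no expression values, so the labelled stage and tissue were not checked against marker genes, and they hold no read counts, so depth is unknown.

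In this species the ratio of X chromosomes to autosomes sets sex. In XO embryos xol-1, the switch gene, is on and keeps sdc-2 off. In XX embryos xol-1 is silenced by proteins encoded on X, SDC-2 loads the dosage compensation complex onto both X chromosomes at recruitment sites, and the complex lowers X expression. SDC proteins also repress her-1, an autosomal gene for a secreted signal that promotes male fate. Many recruitment sites hold a short motif enriched on X, whose core is searched for below as GCGCAGGG.

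The strongest candidate near any of the 10 genes lay upstream of xol-1, and it held the core at 2 places within 100 bp of its summit. The only other summit of the 62 with the core was inside her-1. The core was searched on both strands in WBcel235, the assembly that ce11 names, and the windows below were read from its RefSeq copy. They show the sites near xol-1 and her-1 beside those of the other 7 X regions with the core among the 20 strongest pooled regions, at ranks 2, 7, 9, 12, 17, 18 and 20. Those regions are listed in that order and named by the nearest protein-coding 5′ end. Each window runs 5′ to 3′ on the strand that reads the core, and capitals mark the core.
xol-1 upstream, first site (chrX:8036390-8036419, minus strand): aattttttatcGCGCAGGGacgtatgtcga
xol-1 upstream, second site (chrX:8036424-8036453, plus strand): atttttccatcGCGCAGGGaacccttcgat
her-1 intron (chrV:9698980-9699009, plus strand): caattggtattGCGCAGGGagaatagacgg
W02H3.3, first site (chrX:11094114-11094143, minus strand): cgttttatatcGCGCAGGGagcttatgcat
W02H3.3, second site (chrX:11094215-11094244, minus strand): gggaaccattcGCGCAGGGacacctcactg
ins-39 (chrX:1345045-1345074, plus strand): caatgtcattcGCGCAGGGcagctgagccc
C41A3.2 (pks-1 exon, chrX:5429579-5429608, plus strand): cattaaatttaGCGCAGGGaggacgccgtt
Y41G9A.17 intron (chrX:2997112-2997141, minus strand): ttaaatttatcGCGCAGGGaggaagtagcc
F22H10.2 (chrX:16682161-16682190, minus strand): aagaaaacatcGCGCAGGGaacatcaaatt
mom-1 intron, first site (chrX:6296537-6296566, plus strand): atttacatttgGCGCAGGGggtcaccatag
mom-1 intron, second site (chrX:6296565-6296594, plus strand): agataggtatcGCGCAGGGaagatttaccg
nspc-17 (chrX:14525889-14525918, minus strand): tattgcctatcGCGCAGGGacagatgtggt

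The most frequent base at each position, taken over 17 core sites of 14 thresholded X regions other than the xol-1 region, reads as follows, with capitals on the 8 core letters that the search fixed.
Most frequent bases on X: tcGCGCAGGGag
The share of sites with the most frequent base ranged from 35.3% to 76.5% over the 4 positions outside the core. Both xol-1 sites and the her-1 site matched this run at 11 of 12 positions, 8 of which the search had fixed. The 17 sites that the run was made from matched it at 8 to 12 positions, 10 of them at 11 or more.

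Signal is the authors' enrichment value for a region. Each deposited candidate list held 30000 regions, and the thresholded list was exactly the 857 pooled regions of highest signal, with 37.9 as its lowest value. Signals were compared only within a list, and regions are given below by their rank, where 1 is the strongest. All 10 genes had a pooled candidate, as did 91.7% of all protein-coding genes, so the presence of a candidate set none of them apart. Only xol-1 and dpy-21 had a thresholded summit, which is 2 of 10 genes beside 12.2% of all protein-coding genes. The 62 pooled summits had signals from 8.19 to 178, with a median of 11.8, and the median over all pooled candidates was 11.4. The authors' q-value was 0.05 or lower for 10 of the 62 summits (16.1%), beside 14.2% of all pooled candidates. Those 10 lay at xol-1, sdc-2, dpy-21, dpy-27, dpy-30 and her-1.

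**Figure D1:**
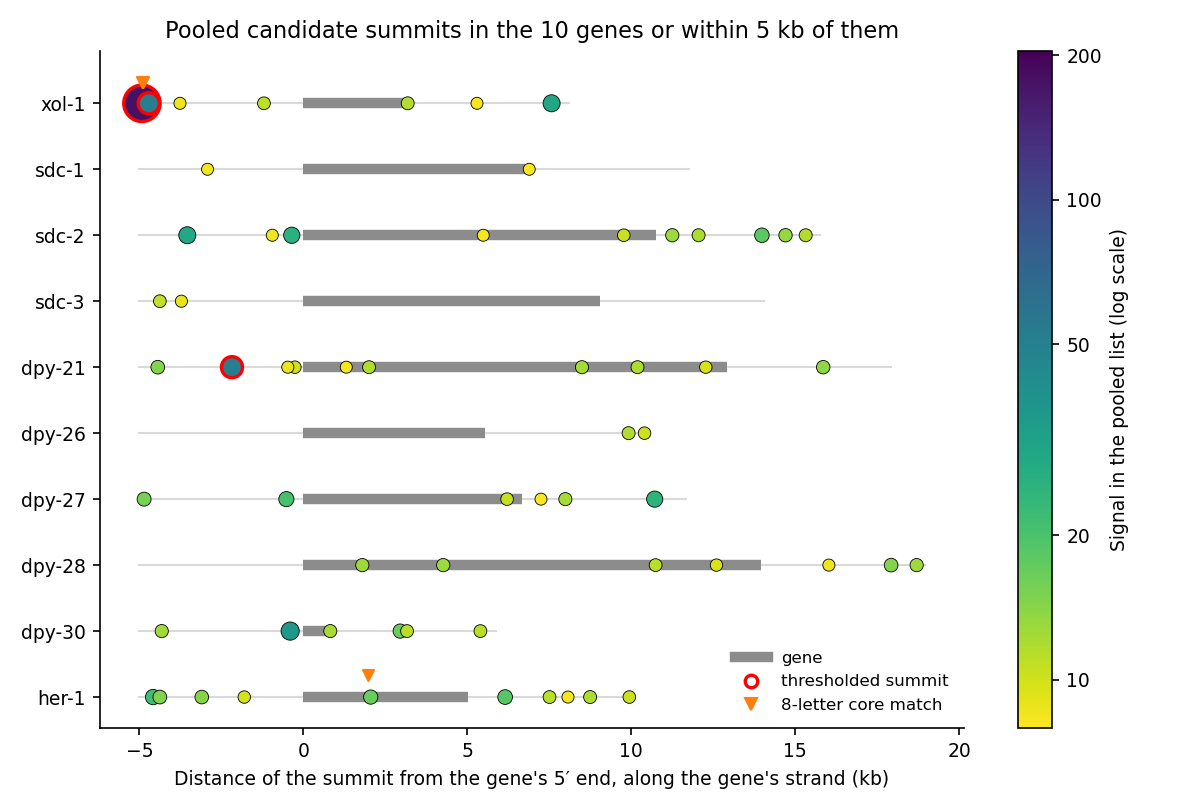
Pooled candidate summits around each gene, by distance from the gene's 5′ end in kb along its strand. Circle size and colour give the signal in the pooled list, grey bars the gene, red rings the 3 thresholded summits and orange triangles the core matches; the xol-1 summit 4921 bp upstream, with a signal of 178, is the strongest.

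The gene windows differed in how many candidates they held. There were 10 pooled summits each for sdc-2, dpy-21 and her-1, 7 each for xol-1 and dpy-28, 6 each for dpy-27 and dpy-30, and 2 each for sdc-1, sdc-3 and dpy-26. The median was 6.5 per gene, and 4 over all protein-coding genes. The 10 genes are longer than most, with a median length of 6717 bp against 2027 bp. Per 10 kb of window the median was 3.98 summits for the 10 genes and 2.73 for all protein-coding genes.

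Most of these summits were not at the genes' own starts. Of the 62, 4 were within 500 bp of the 5′ end of the gene they were assigned to, 2 at dpy-21 and 1 each at sdc-2 and dpy-30. In all, 23 (37.1%) were within 500 bp of some protein-coding 5′ end, as were 31.2% of all pooled candidates. The gene with the nearest protein-coding 5′ end was the gene itself for 18 of 62 summits. For sdc-1, sdc-3 and dpy-26 this held for none. By position, 27 summits (43.5%) were intergenic, 15 (24.2%) intronic and 20 (32.3%) exonic, counting every annotated gene. Over all pooled candidates these shares were 39.8%, 33.2% and 27.03%.

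The gene xol-1 is at chrX:8041313-8044409 on the plus strand. Its strongest region, chrX:8036186-8036657, was intergenic, with the summit at 8036392, 4921 bp upstream of the 5′ end. The signal was 178 and the rank 14 in the pooled list, the ninth-highest value on the X chromosome (rank 9 there). In replicate 1 the overlapping region had a signal of 141 and also ranked 14, and in replicate 3 it had a signal of 33.1 and ranked 28. Both libraries therefore placed it far inside their 857 strongest candidates. The summits differed by 94 bp between the pooled list and replicate 1, and by 11 bp between the pooled list and replicate 3.

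Of all protein-coding genes, 34 (0.170%) had a candidate of rank 14 or stronger within the same limit, and xol-1 is one of them. The region was close to the limit of 5 kb. It is a little nearer to the 3′ end of C34D10.1, 4778 bp away, than to xol-1, although the closest protein-coding 5′ end is that of xol-1. The annotated genes nearest to the summit were noncoding: C18A11.13, an ncRNA, at 282 bp, and the tRNA gene WBGene00022939 at 293 bp. The lists do not say which of these genes, if any, the region acts on.

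The region's core sites had their midpoints 13 bp and 47 bp from the pooled summit. From the nearest replicate 1 summit they were 81 bp and 47 bp away, and from the nearest replicate 3 summit 24 bp and 58 bp. Within 100 bp of the summit, GC content was 36.8% and masked repeats covered 20.4%. For comparison, thresholded summits averaged 42.6% ± 6.73 GC (SD over 857 regions).

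A second thresholded region at xol-1 overlapped the first. It spanned chrX:8036345-8036657, with its summit at 8036601, a signal of 52.3 and a rank of 406. Its summit was 4712 bp upstream of xol-1, 73 bp from C18A11.13 and 84 bp from the tRNA gene WBGene00022939, and masked repeats covered 55.2% of the surrounding sequence. Replicate 1 had a single region over both summits. Replicate 3 had a candidate of its own with its summit at 8036593, which had a signal of 4.73 and ranked 8606. The pair of thresholded regions thus came from 1 place, and the second summit was weak in the only library that listed it separately.

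The other 5 pooled summits at xol-1 had signals from 8.26 to 29.3. The highest was downstream of the gene, at 8048885, with rank 1539 in the pooled list, 1066 in replicate 1 and 2167 in replicate 3. No pooled summit was within 500 bp of the xol-1 5′ end. Replicate 1 had a candidate 4 bp from it with a signal of 7.19 and rank 26856, which overlapped no pooled region.

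**Figure D2:**
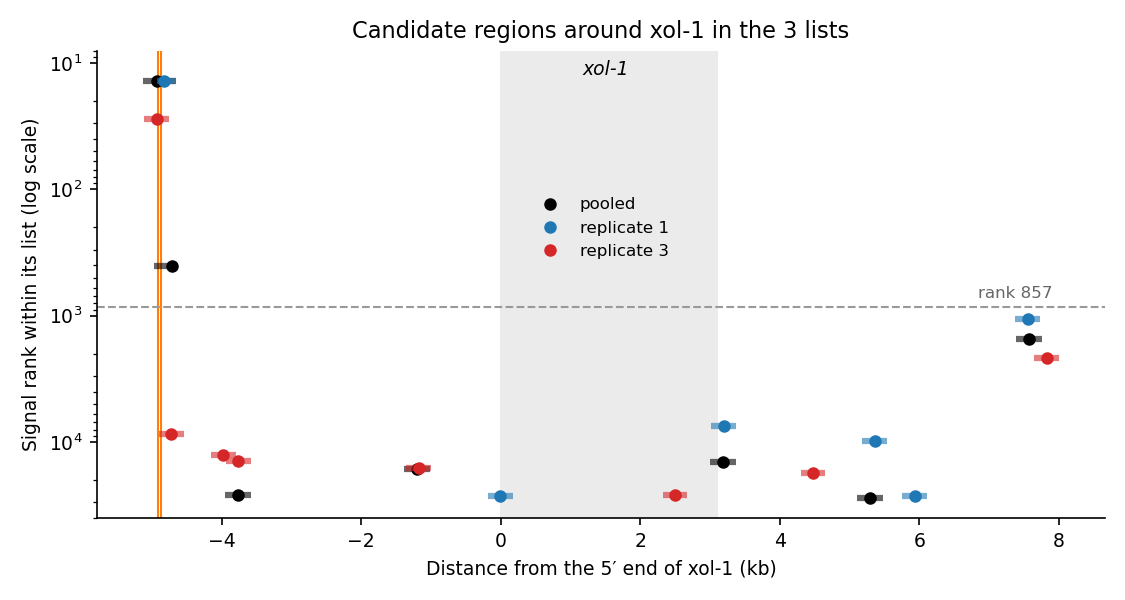
Candidate regions around xol-1 in the pooled list and in both libraries, by distance from the 5′ end of xol-1 in kb and by signal rank within each list on a log axis with the strongest at the top. Bars are regions, points summits, orange lines core sites, the grey band the gene and the dashed line rank 857; the 3 lists place their strongest region at the same upstream sites, at ranks 14, 14 and 28.

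The 3 thresholded regions most like it, by distance in log10 rank over the pooled list and both libraries, were drawn from 839 regions with a candidate in each library. The closest, at III 7854679, was 455 bp from the 5′ end of the ribosomal protein gene rpl-35, with ranks of 16, 19 and 30 and a distance of 0.148. The next, at IV 4750061, was 179 bp from the 5′ end of Y17G9B.5, with ranks of 22, 17 and 33 and a distance of 0.225. The last, at X 16682117, was 2577 bp from the 5′ end of F22H10.2, with ranks of 17, 15 and 49 and a distance of 0.259. The pooled ranks themselves come from both libraries. By the library ranks alone, the rpl-35 and Y17G9B.5 regions stayed among the 3 closest, and the F22H10.2 region did not. The F22H10.2 summit had the core once within 100 bp, although all but the first base of that match lay past the region's end. Neither autosomal summit had the core within 100 bp.

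The core was rare among candidates and concentrated in the strongest X regions. It was within 100 bp of 0.133% of all pooled summits and of 2.10% of thresholded summits, beside 2 of the 62 summits at the 10 genes. The thresholded summits with the core were 15 of 153 on X (9.80%) and 3 of 704 on autosomes (0.426%). Among the 20 strongest pooled regions, 8 of the 12 on X had it within 100 bp of the summit, the xol-1 region included. On autosomes 0 of the 8 did. In 3 of those 8, at xol-1, mom-1 and W02H3.3, the core occurred more than once, and over all 30000 pooled summits this was so for 4. The core itself occurred 81 times on X (4.57 per Mb) and 233 times on autosomes (2.82 per Mb). These shares describe matches to letters, and whether the dosage compensation complex was present at the regions in these larvae was not measured.

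**Figure D3:**
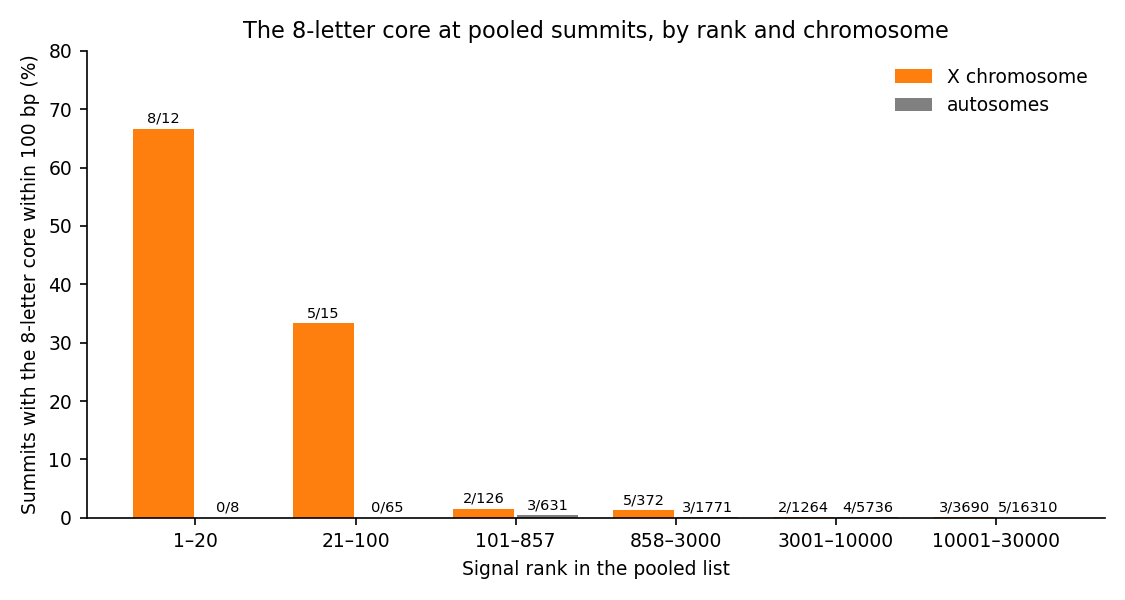
Share of pooled summits with GCGCAGGG within 100 bp, in percent, by signal rank, for the X chromosome (orange) and the autosomes (grey), with counts above the bars. On X, 8 of 12 summits at ranks 1 to 20 and 5 of 15 at ranks 21 to 100 held the core, and none of the autosomal summits in those ranks did.

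Other motifs gave lower contrasts at the 62 summits. The shorter core CGCAGGG, which every GCGCAGGG match includes, was at 3 of 62 (4.84%), beside 0.453% of pooled and 3.27% of thresholded summits. The extra summit, at X 11536693 near sdc-2, lay in an exon of C35C5.9. The repeat GAGAGAG was at 7 of 62 (11.3%), beside 5.17% of pooled and 17.9% of thresholded summits. GGGACGC, which holds the same letters as CGCAGGG in another order, was at 0 of 62, beside 0.323% of pooled summits.

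Of the SDC genes, which encode the proteins that bring the complex to X, sdc-2 had the strongest candidates. The gene is at chrX:11522707-11533450 on the plus strand. Its leading summit, at 11519170, was 3537 bp upstream but only 104 bp from the 5′ end of hpo-34 and inside the ncRNA gene F29G6.4. It had a signal of 29.3 and rank 1547 in the pooled list, 17.4 and rank 3326 in replicate 1, and 6.48 and rank 4067 in replicate 3.

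A second sdc-2 summit, at 11522355, was 352 bp upstream of the sdc-2 5′ end, which is its nearest protein-coding 5′ end. Its signal was 25.6 and its rank 2174. The libraries were far apart there. Replicate 1 had its summit 1 bp away with rank 1336, whereas in replicate 3 the overlapping region ranked 28647, with a summit 224 bp away. The remaining 8 sdc-2 summits had signals of 8.26 to 18.0, and 2 of the 10 lay inside the gene.

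Pooled candidates near the other SDC genes ranked low. At sdc-1 (chrX:16275763-16282534) the best of 2 summits had a signal of 8.38 and rank 27242, and 90.3% of protein-coding genes had a candidate of that rank or stronger. At sdc-3 (chrV:15039148-15048207) the best of 2 had a signal of 10.9 and rank 16622. It lay 51 bp from an annotated 5′ end of fbxa-82, and the other summit lay 1 bp from a different one. With the Ensembl ends used here, neither gene had a pooled summit inside it. The weaker sdc-1 summit, at 16282654, was 120 bp past that end, but it lay inside the gene as RefSeq holds it, which ends at 16282691. Neither gene had a pooled q-value of 0.05 or lower. By the strongest candidate of each library within 5 kb, sdc-1 ranked 17593 in replicate 1 and 11197 in replicate 3. For sdc-3 these ranks were 18415 and 5537. The replicate 3 candidate of sdc-3, at 15050925, was 2718 bp upstream, had a signal of 5.73 and overlapped no pooled region. Its rank in that library was ahead of the best replicate 3 ranks of dpy-28 (9159), dpy-27 (9308) and dpy-26 (14014).

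Among the dosage compensation genes, dpy-21 had the only thresholded summit. It encodes a demethylase that acts on lysine 20 of histone H4 and is at chrV:17936282-17949193 on the minus strand. The summit, at 17951368, was 2175 bp upstream of dpy-21 and 581 bp from Y59A8B.24, whose 5′ end was nearer. It had a signal of 51.4 and rank 422 in the pooled list, and 48.3 and rank 274 in replicate 1. Replicate 3 had no region overlapping it, which was so for 18 of the 857 thresholded regions. The closest replicate 3 summit was at 17950551, with rank 21440, and its strongest in the dpy-21 window was at 17950352, with rank 3913. GC content around the pooled summit was 59.2%, the highest of the 62, and the window held GAGAGAG. The other 9 dpy-21 summits had signals of 8.28 to 14.5, and 5 of the 10 lay in the gene.

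The gene dpy-30, whose product is shared with the COMPASS histone H3 lysine 4 methyltransferase complexes, had the promoter-proximal summit on which both libraries placed their summits most closely. It is at chrV:12191519-12192385 on the plus strand. The summit, at 12191118, was 401 bp upstream of the 5′ end. Replicate 1 had its summit at the same base and replicate 3 at a distance of 1 bp. The signal was 35.1 in the pooled list (rank 1019), 21.9 in replicate 1 (rank 1887) and 8.22 in replicate 3 (rank 2109). The pooled signal was below the lowest thresholded value of 37.9.

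The condensin subunit genes had weaker or more distant candidates. At dpy-27 (chrIII:3813018-3819679), which encodes an SMC protein specific to the complex, the leading summit had a signal of 25.2 and rank 2256, but it lay in an exon of toh-1, 68 bp from that gene's 5′ end. The overlapping regions ranked 1896 in replicate 1 and 20772 in replicate 3. A dpy-27 summit at 3820195, 516 bp upstream of its own 5′ end, had a signal of 20.6 and ranked 3645 in the pooled list, 7570 in replicate 1 and 14240 in replicate 3. At dpy-28 (chrIII:10763131-10777076) the best of 7 summits had a signal of 14.5 and rank 8551. It was nearest to ptr-19, and 4 of the 7 lay inside dpy-28. At dpy-26 (chrIV:12445801-12451335) both summits were downstream of the gene, with signals of 11.7 and 10.2 and ranks of 14092 and 18966.

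**Figure D4:**
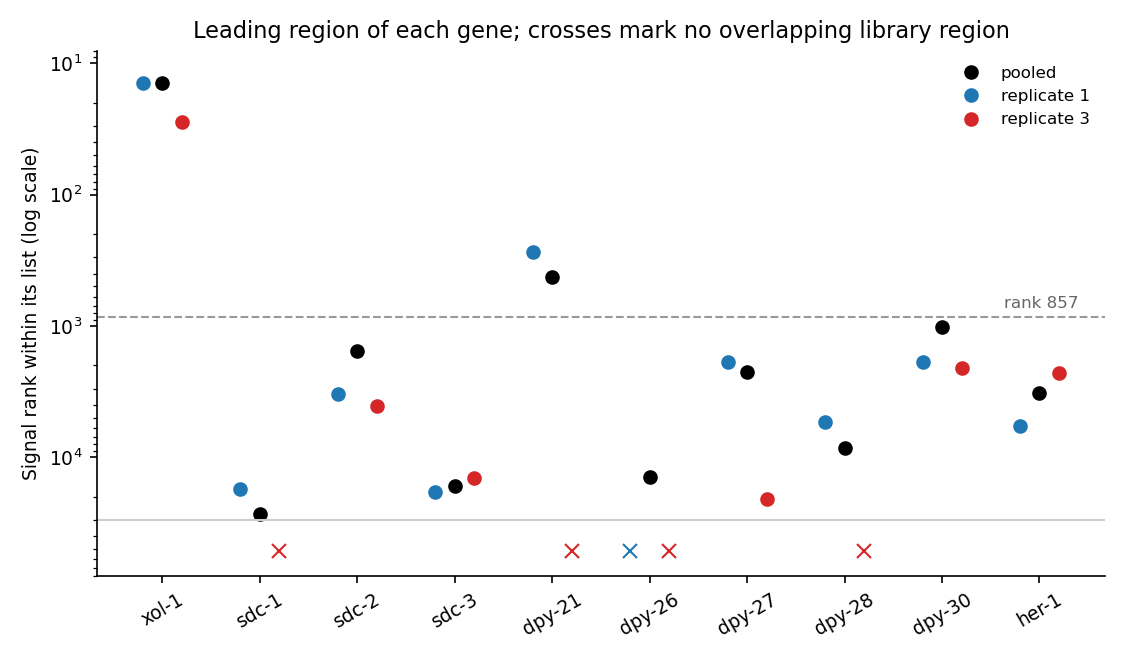
Signal rank, on a log axis with the strongest at the top, of each gene's leading pooled region and of the overlapping regions of replicates 1 and 3; crosses mark a library with no overlapping region and the dashed line rank 857. At xol-1 all 3 values lie above the line, at dpy-21 the pooled list (422) and replicate 1 (274) do and replicate 3 has none, and no other gene has a point above it.

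The her-1 gene, at chrV:9697015-9702035 on the plus strand, had 10 pooled summits and none past the threshold. The strongest, at 9692435, had a signal of 21.6 and ranked 3260 in the pooled list, 5774 in replicate 1 and 2265 in replicate 3. It lay 276 bp from the 5′ end of ztf-9 and near the ncRNA gene ZK287.11. The 1 summit inside her-1, at 9699071, was in an intron, 2056 bp downstream of the gene's 5′ end and 1699 bp from the nearest annotated transcript start, also of her-1. Its signal was 16.7 and its rank 6032. Replicate 1 had a summit 5 bp away with a signal of 13.9 and rank 6021, and replicate 3 had no overlapping region.

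That intronic summit is the one with the core shown above, whose midpoint lies 76 bp from the summit. Among autosomal pooled summits 15 of 24521 (0.0612%) had the core within 100 bp. The midpoint was 1980 bp downstream of the her-1 5′ end. The nearest replicate 3 summit was 1075 bp away, with rank 28977. The core occurred at 3 places in all 10 gene windows together, the pair upstream of xol-1 and this one. A pooled summit lay within 100 bp of each, the same summit for both sites of the pair. Over the genome the core occurred 81 times on X and 233 times on autosomes. It was within 100 bp of 25 pooled summits on X and 15 on autosomes, so a summit near a core site was not the rule.

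**Figure D5:**
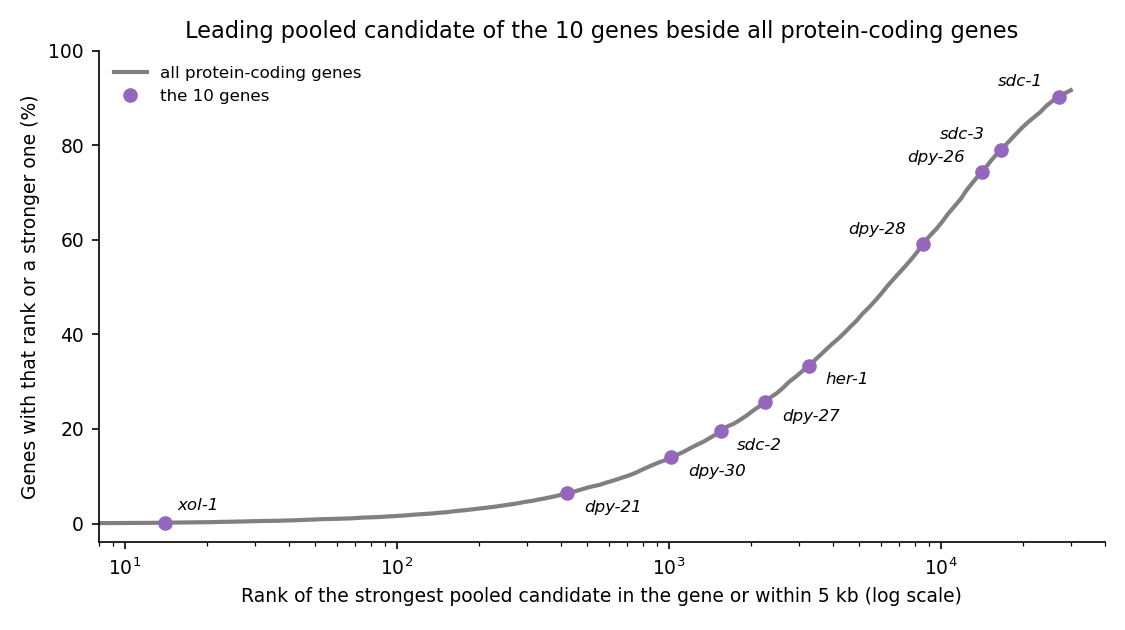
Share of all 19973 protein-coding genes, in percent, whose strongest pooled candidate has a given rank or a stronger one (grey line, log axis), with the 10 genes as points on it. The 10 genes spread from 0.170% at xol-1 to 90.3% at sdc-1.

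The leading candidates of the 10 genes thus covered nearly the whole range seen over all genes. The share of protein-coding genes with a leading candidate as strong or stronger was 6.40% at dpy-21, 14.0% at dpy-30, 19.5% at sdc-2, 25.7% at dpy-27 and 33.4% at her-1. It was 59.1% at dpy-28, 74.3% at dpy-26 and 79.1% at sdc-3. The median leading rank was 2758 for the 10 genes and 5468 for the protein-coding genes that had a candidate.

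With each library's own 857 strongest candidates in place of the thresholded list, xol-1 and dpy-21 had a summit in replicate 1, beside 11.9% of protein-coding genes. Only xol-1 had one in replicate 3, beside 11.7%. A top summit of each library was near 1 of the 10 genes, xol-1, and near 6.55% of protein-coding genes. A replicate 1 region overlapped 48 of the 62 pooled regions (77.4%, beside 79.1% of all pooled regions). A replicate 3 region overlapped 34 of them (54.8%, beside 50.8%). Both libraries had one at 27 (43.5%, beside 37.9%), and neither did at 7.

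Around the limit of 5 kb the xol-1 summit was the only strong one. Just inside were a dpy-26 summit 4872 bp from the gene with a signal of 10.2, the leading xol-1 summit at 4921 bp with 178, and a her-1 summit at 4923 bp with 10.4. Just outside were a dpy-27 summit at 5040 bp with a signal of 15.0, a dpy-21 summit at 5216 bp with 8.65 and a dpy-26 summit at 5323 bp with 8.56.

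Genes that act around these 10 were read from 6 lists with 28 genes in all. A pooled candidate was near 24 of the 28 (85.7%), beside 91.7% of all protein-coding genes. A thresholded summit was near 6 (21.4%), beside 12.2%. Of their 149 pooled summits 0 had the core within 100 bp, beside 0.133% of all pooled summits. With a share that low, 0 of 149 shows no contrast. No test was made of these shares.

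Of the 3 X signal elements, which count X chromosomes by acting on xol-1, sex-1, a nuclear receptor gene, was the 1 with a thresholded summit (signal 44.4, rank 588). It ranked 566 in replicate 1 and 1706 in replicate 3, outside that library's 857 strongest. The summit was downstream, 221 bp from the 5′ end of nucb-1. The RNA-binding protein gene fox-1 had a leading rank of 5128, in its own intron, and the homeobox gene ceh-39 one of 2459. Of the 2 autosomal signal elements, sea-2 had a leading rank of 1123 in its own intron, and sea-1 had no pooled candidate.

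Both of the 2 H4K20 methyltransferase genes had a thresholded summit, as did 12.2% of protein-coding genes. Each also had a top summit of both libraries, as did 6.55% of protein-coding genes. At set-4, which makes the mark that DPY-21 acts on, the summit was 290 bp upstream of its own 5′ end, with a signal of 81.2 and ranks of 112 in the pooled list, 108 in replicate 1 and 511 in replicate 3. At set-1 the summit was 1519 bp upstream, with a signal of 50.8 and ranks of 436, 624 and 98, and jhdm-1 had the nearer 5′ end at 586 bp.

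Of the 6 condensin subunit genes outside the 10, kle-2 had a thresholded summit (signal 45.3, rank 565) in one of its exons. Of the 5 COMPASS genes, set-2 had one (signal 41.4, rank 700), which lay 121 bp from the 5′ end of rpb-8. Of the 10 genes downstream of her-1, tra-2, which encodes the membrane receptor for HER-1, had one (signal 59.9, rank 281), 31 bp from a 5′ end of ceh-38. By rank in replicate 1 and replicate 3, kle-2 had 621 and 816, set-2 717 and 1085, and tra-2 504 and 129. In the 6 genes with a thresholded summit, set-4 was the only one whose own 5′ end was the nearest.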

How the data were processed

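Positions, signals and q-values came from lists of candidate regions that the authors deposited, on ce11, for each library, for both libraries pooled and for a thresholded set. Per the deposited file listings, each library's list rests on that library's alignments with 1 control file. The signal is the authors' deposited value per region, and the −log10 of a q-value is also as deposited. What aligner, peak caller and threshold settings were used is not given in the sources used here.

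Nearly all pooled regions shared 1 width, 376 bp, so distances were taken from summits. Genes came from Ensembl release 115, and sequence with its masked repeats from WBcel235 as RefSeq holds it. Gene ends were the same in RefSeq for 7 of the 10 genes. A library region matched a pooled region when they shared at least 1 bp, and the strongest was taken. GC content, masked repeats and motifs were read within 100 bp of a summit. Computation used Python 3.11.15, numpy 2.4.6 and pandas 2.3.3, and window counts and motif searches were tested on simulated data.

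No test was made, since the data hold 1 group, and counts of genes with a summit stand beside the share over all protein-coding genes. The genes, lists and motifs were chosen with earlier results of these data known. Named were all 10 genes with their leading regions, pathway genes with a thresholded summit, the nearest 5′ end of each thresholded summit, and the 3 regions closest in rank to the strongest xol-1 region. Other pathway genes and core-bearing X regions were named after their values were seen. Alternatives changed the distance limit, the way a summit is assigned, the strength cutoff, the flank, the motif and the library.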

Additional observations from a re-analysis of the deposited data

How the results depend on the processing

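Of 62 alternative values, 39 stayed within 1.5 times the reported count or rank, or within the spread between libraries. The 62 pooled summits became 24, 29 and 96 at limits of 1, 2 and 10 kb, 35 within 5 kb of an annotated 5′ end, 18 by nearest protein-coding gene and 36 among the 15000 strongest candidates. The 3 thresholded summits at 2 genes became 0 at 0 genes at limits of 1 and 2 kb, and by nearest protein-coding gene only 1 gene, xol-1, was left. With a single library, 1 to 2 thresholded summits at 1 to 2 genes remained, and dpy-21 was lost with replicate 3 alone. Summits within 100 bp in place of overlap gave 16 replicate 3 matches in place of 34. With a single library, mean GC content at the summits ran from 31.6% to 35.2% (34.9% as reported), masked repeats from 33.7% to 39.3% (33.6%), and 1 to 2 summits held the core. The leading rank by single library was 14 to 28 at xol-1, 274 at dpy-21 in replicate 1 alone, 3326 to 4067 at sdc-2 and 1887 to 2109 at dpy-30. In the ce10 pooled list, an alternative chosen after seeing the data in which regions were matched by chromosome, width and signal, the leading ranks were 14, 422, 1546 and 1019 in the same order of genes. The cause of these shifts was not tested. Depth is unknown, 2 libraries give no reliable spread, and mappability was not measured.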

Other observations

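Each of the 2 summits with the core near the 10 genes had a replicate 1 region, and 1 had a replicate 3 region. Over thresholded X regions, the core was also near the summits nearest to gtr-1 (rank 21, ranks 18 and 67 in replicates 1 and 3), T24D8.6 (rank 32, 41 and 14) and col-185 (rank 57, 88 and 29). At F20B6.9 (rank 34) replicate 1 ranked the region 25 and replicate 3 had no overlapping region. At dpy-23 (rank 285) the libraries ranked it 203 and 2875. The remaining thresholded X regions with the core were nearest to F19H6.5 (rank 48, 58 and 35) and R04E5.9 (rank 632, 730 and 451). The F19H6.5 site matched the most frequent bases at 8 of 12 positions.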
